A study of Mus musculus with 5 samples.

Results

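Open chromatin and the binding of the transcription factors HEB and TCF1 are described here at Tcrb, the T cell receptor beta locus, and around Rag1 and Rag2, the recombination activating genes. The cells were double positive (DP) thymocytes, T cell precursors that carry CD4 and CD8 at once, from C57/BL6 mice 4 to 6 weeks old. The groups of the series are its assays: DNase I hypersensitivity and chromatin immunoprecipitation (ChIP) for HEB, TCF1, H3K9me3 and H3K27ac, with 1 sample each and no treatment or genotype compared. The region lists of DNaseI, HEB and TCF1 were used. H3K9me3 and H3K27ac were not analysed here. Members were all regions that overlapped by at least 1 bp an 800 kb window of chromosome 6 (mm9 40800001 to 41600000, called the Tcrb window) or a 200 kb window of chromosome 2 (mm9 101350001 to 101550000, called the Rag window). These were 70 of the 56796 regions of the 3 lists. By list, 54 of 48320 were members for DNaseI, 8 of 4930 for HEB and 8 of 3546 for TCF1.

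Tcrb is assembled from variable (Trbv), diversity (Trbd) and joining (Trbj) segments that V(D)J recombination cuts and joins, and the spliced transcript ends in a constant (Trbc) segment. RAG1 and RAG2 form the recombinase that makes the cuts, so their genes are active while lymphocytes assemble their receptors. Tcrb rearranges before the DP stage, and DP thymocytes express Rag1 and Rag2 again while they rearrange Tcra. The Tcrb enhancer is known to lie between Trbc2 and Trbv31 and to be needed for the rearrangement and transcription of the locus. HEB, encoded by Tcf12, is an E protein that binds E-box sequences, and TCF1, encoded by Tcf7, is an HMG-box factor that binds sequences of the CTTTG type. A region in a list is a stretch of enriched signal and gives neither the expression of a gene nor that of any marker of DP cells.

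The RefSeq table places Rag2 and Rag1 next to each other, on opposite strands and with their 3′ ends facing, between Iftap and Traf6. That table and its sequences are of assembly GRCm38.p6, whereas the regions are in mm9. No region was therefore assigned to a promoter, exon or intron. Positions of the 2 builds cannot be compared directly, and they were not converted. The 250 bases before the start of each gene are shown because the E-box is the sequence that HEB is known to bind. Capitals mark E-boxes (CANNTG on either strand, with no overlap between hits). The stretch of Rag2 is chr2:101624462-101624711 (GRCm38.p6, plus strand) and that of Rag1 is chr2:101649533-101649782 (GRCm38.p6, minus strand).
Rag2: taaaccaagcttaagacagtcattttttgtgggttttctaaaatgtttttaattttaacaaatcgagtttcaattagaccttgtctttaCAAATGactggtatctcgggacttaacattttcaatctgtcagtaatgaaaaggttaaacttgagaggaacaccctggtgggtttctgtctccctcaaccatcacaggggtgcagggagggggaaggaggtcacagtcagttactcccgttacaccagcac
Rag1: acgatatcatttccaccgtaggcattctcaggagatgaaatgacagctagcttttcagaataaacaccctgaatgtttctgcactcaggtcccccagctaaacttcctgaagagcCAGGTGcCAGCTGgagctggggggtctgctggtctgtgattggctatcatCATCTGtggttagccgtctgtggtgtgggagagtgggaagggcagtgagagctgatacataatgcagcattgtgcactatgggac
The Rag1 stretch held 3 E-boxes: CAGGTG lay 135 to 130 bases before the start of the gene, CAGCTG lay 128 to 123 bases before it, and CATCTG lay 85 to 80 bases before it. The Rag2 stretch held 1, CAAATG, which lay 161 to 156 bases before the start. At least 1 E-box was present in 66.2% of the 32851 promoter stretches of this length in the table. CAGCTG was present in 13% and CAGGTG (or CACCTG on the other strand) in 17.2% of them. The TCF-type motifs CTTTGA and CTTTGT, searched on both strands, were in neither stretch. They were in 13.8% and 16.5% of all stretches. These are matches of letters only.

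The Tcrb window held 27 DNaseI regions, 3 TCF1 regions and 1 HEB region. The DNaseI density was 33.8 per Mb (95% Poisson interval 22.2 to 49.1), against 16.6 per Mb on the rest of chromosome 6. With windows of 800 kb laid end to end over all chromosomes, 79.2% of the other 3194 windows held fewer DNaseI regions. TCF1 stood at 3.75 per Mb (0.773 to 11), against 1.33 per Mb on the rest of the chromosome. HEB stood at 1.25 per Mb (0.0316 to 6.96), against 1.90 per Mb. The intervals of both factors hold the value of the rest of the chromosome. All these intervals assume regions scattered evenly and independently, and they do not measure the spread between windows. Among the 665 other windows with at least 27 DNaseI regions, the median number of HEB plus TCF1 regions was 6 (quartiles 4 and 9). The Tcrb window had 4 of them, and 460 of these windows had more.

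**Figure D1:**
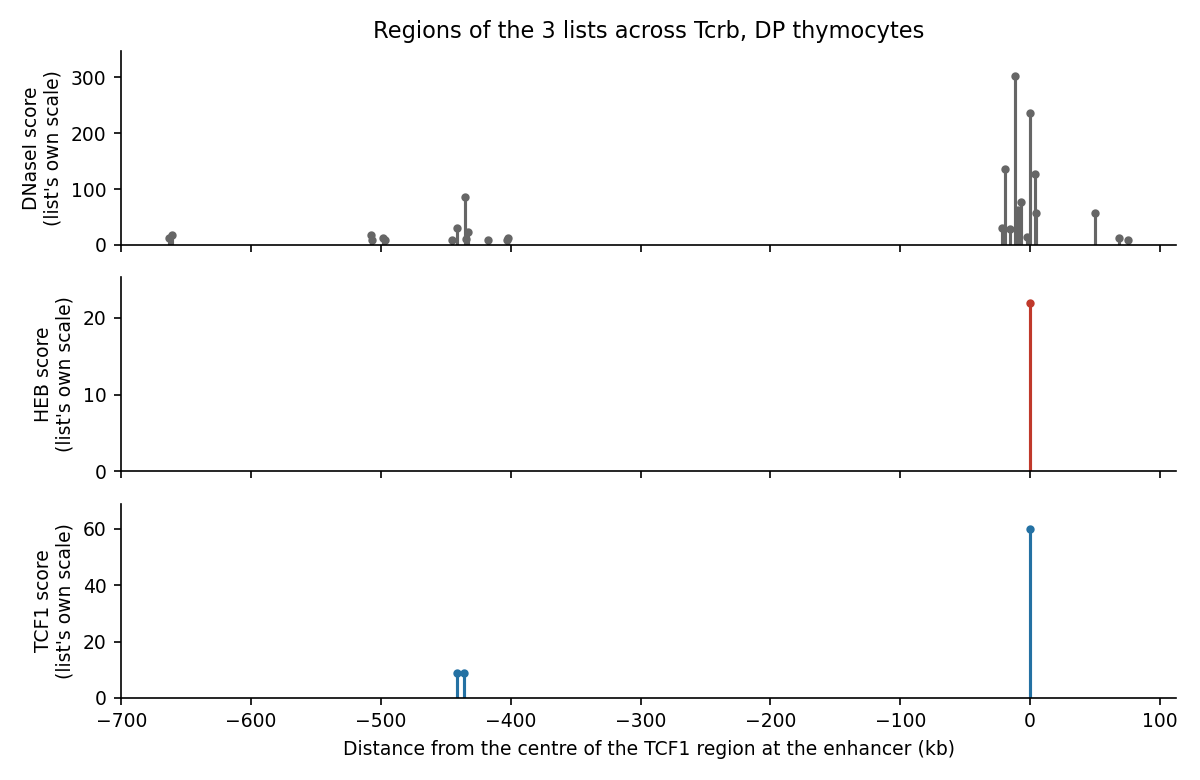
Score of each DNaseI, HEB and TCF1 region of the Tcrb window against its distance in kb from the centre of the TCF1 region at the enhancer; each stem is 1 region and each panel has the scale of its own list. DNaseI regions lie in groups on either side of an empty stretch of 380 kb, and HEB appears only at the enhancer.

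The site at the Tcrb enhancer stood at the top of the TCF1 list. The TCF1 region at 41504396 to 41504578 had a score of 60, and no other of the 3546 TCF1 regions scored as high. A HEB region at 41504335 to 41504535 overlapped it by 140 bp, with the centres 52 bp apart. Its score of 22 was exceeded by 477 HEB regions and lay above 88.8% of the list. Both lay in the DNaseI region from 41503481 to 41505228, which was 1748 bp wide and had a score of 236. That score was exceeded by 86 DNaseI regions and lay above 98.2% of those of like width, meaning the same of 9 groups of widths. The HEB centre fell 80.5 bp and the TCF1 centre 132.5 bp from the centre of the DNaseI region. The enhancer position of 41.504 Mb given by the rule for members also falls in this DNaseI region.

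The enhancer belonged to a dense group of open regions. Linked over gaps of up to 10 kb, 10 DNaseI regions from 41482673 to 41509711 formed a group of 27 kb, of which 11823 bp were covered. Their median score was 69.5, against 16 for the whole list. The highest of them, at 41491480 to 41494651, was 3172 bp wide and scored 302, above all but 38 DNaseI regions of the genome. It lay 10.9 kb before the enhancer position and carried neither factor. Of the 39 DNaseI regions with scores of 302 or more, 30 carried HEB or TCF1 and 9 carried neither. The regions at 41484178 to 41486561 (score 136) and 41507503 to 41508722 (score 127) also carried neither factor. The remaining 6 regions of the group scored 14 to 76 and carried none. All the factor binding listed in the group was thus at the enhancer region itself.

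**Figure D2:**
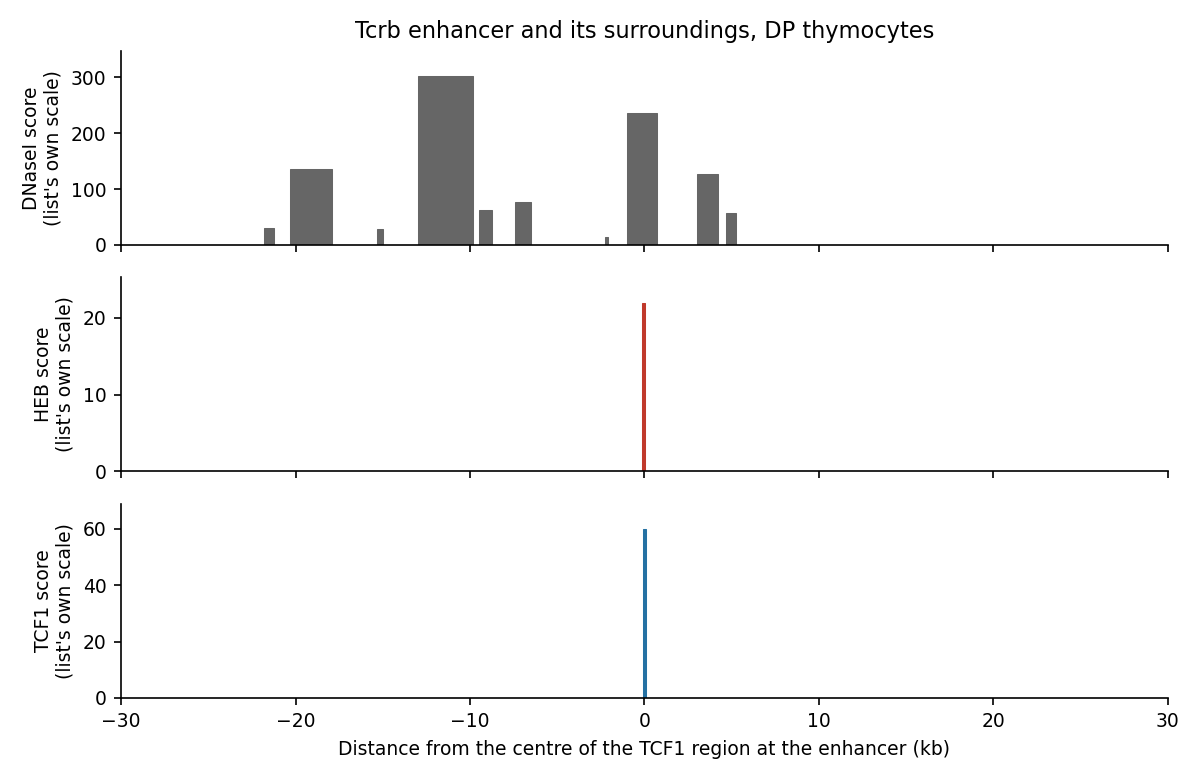
Scores of the regions within 30 kb of the TCF1 region at the enhancer, against distance in kb; each bar is 1 region, drawn to its width, with the scale of its own list per panel. The DNaseI region with a score of 302 has no HEB or TCF1 region, whereas the one with a score of 236 has both.

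A second group of open regions with TCF1 lay far from the enhancer. TCF1 regions at 41063416 to 41063598 and at 41068363 to 41068545 each had a score of 9, which lay above 12.5% of the list. Their centres were 440 kb and 436 kb before the enhancer position. They lay in DNaseI regions at 41063049 to 41063635 (score 30) and at 41068313 to 41069630 (score 86). The region with a score of 86 had the fifth highest DNaseI score of the window. The other 3 DNaseI regions of this group scored 8, 11 and 24, and no HEB region was listed there.

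Between these groups, no region of any list was found from 41102333 to 41482672, a stretch of 380 kb. Stretches without DNaseI regions at least as long numbered 66 on chromosome 6 and 1049 in the genome, or 2.17% of all gaps between DNaseI regions. The median gap between DNaseI regions of the window was 2.45 kb, against 6.20 kb on the rest of the chromosome. In the RefSeq table the Tcrb locus holds 35 Trbv, 2 Trbd, 14 Trbj and 2 Trbc segments and also trypsinogen genes such as Prss2. The Trbv and Trbj counts include segment pseudogenes. Gene copies that resemble each other can lose reads in mapping, and the part of this in the empty stretch was not tested. Beyond the enhancer group, a DNaseI region at 41554424 to 41555118 scored 58 and carried neither factor. The other 11 DNaseI regions of the window, those outside the enhancer group, the site at 41554424 and the group with TCF1, scored 8 to 18.

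The Rag window held as many DNaseI regions, 27, in a shorter stretch, and more regions of both factors. HEB had 7 regions, a density of 35 per Mb (95% Poisson interval 14.1 to 72.1), against 2.10 per Mb on the rest of chromosome 2. TCF1 had 5 regions, 25 per Mb (8.12 to 58.3), against 1.504 per Mb. DNaseI regions stood at 135 per Mb (89 to 196), against 22.8 per Mb. These intervals assume regions scattered evenly and independently, whereas the other 200 kb windows held a median of 0 and a maximum of 66 DNaseI regions. They therefore do not measure how unusual the window is. Of the other 12832 windows of 200 kb, 2 held more than 7 HEB regions, 17 more than 5 TCF1 regions and 254 more than 27 DNaseI regions. For the sum of HEB and TCF1, 3 windows held more than 12 regions. The number of factor regions was also high for that number of DNaseI regions. Among the 288 other windows with at least 27 of them, the median was 3 factor regions (quartiles 2 and 6), and 280 of the 288 held fewer than 12.

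**Figure D3:**
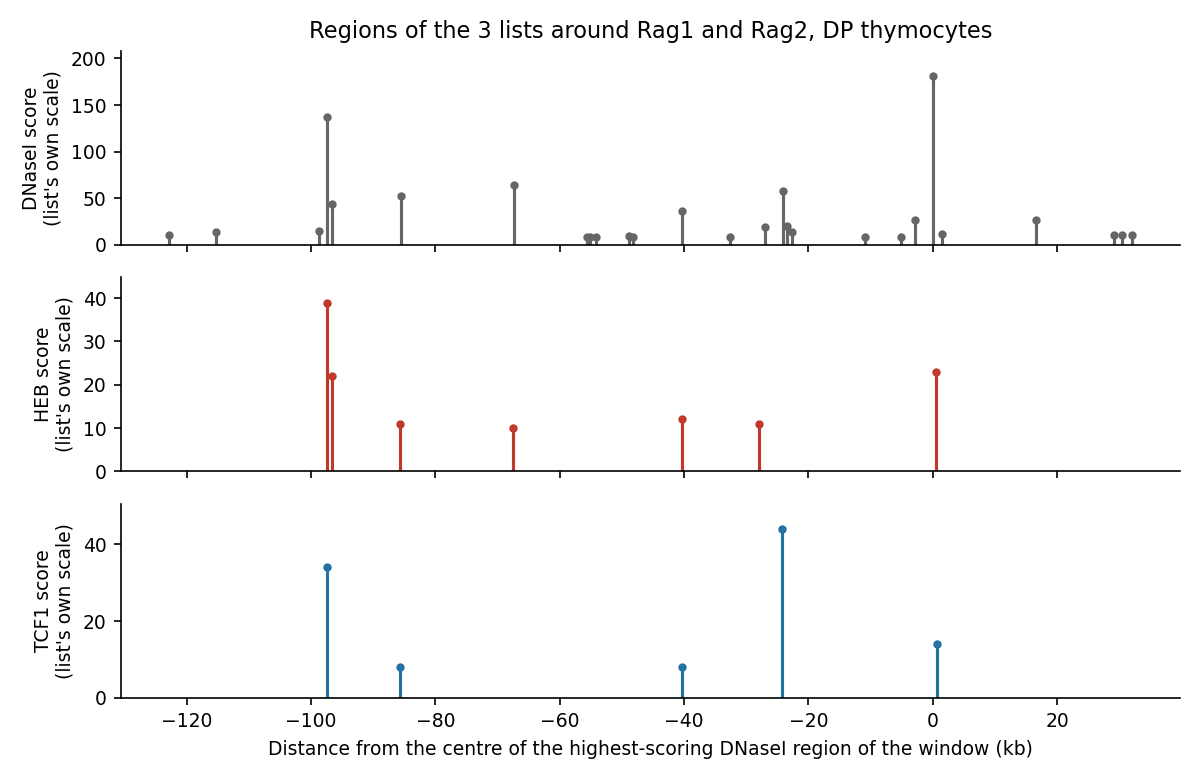
Score of each DNaseI, HEB and TCF1 region of the Rag window against its distance in kb from the centre of the DNaseI region with the highest score, 181; each stem is 1 region and each panel has the scale of its own list. The TCF1 regions span 98.1 kb between centres, from the DNaseI region with a score of 137 to the one with a score of 181.

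At the low end of these positions lay a pair of open regions with HEB, among them the one with the highest HEB score of the window. The DNaseI region at 101391382 to 101391997 scored 137, which was exceeded by 601 regions of the list and lay above 99.96% of those of like width. It carried a HEB region at 101391707 to 101391907 with a score of 39, exceeded by 81 HEB regions. It also carried a TCF1 region at 101391601 to 101391783 with a score of 34, exceeded by 35 TCF1 regions. The centres of this HEB and TCF1 pair were 115 bp apart, the widest of the pairs in both windows. The next DNaseI region, 378 bp further at 101392376 to 101392823, scored 44 and carried HEB alone, at 101392527 to 101392727, with a score of 22. An element upstream of Rag2, the anti-silencer element, is known to drive Rag expression in DP thymocytes. Whether it coincides with this pair cannot be read from files without an mm9 annotation.

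Between 101403170 and 101449099 lay 3 further open regions with HEB. The DNaseI region at 101403170 to 101404180 (score 52) carried HEB (101403364 to 101403564, score 11) and TCF1 (101403352 to 101403534, score 8), with centres 21 bp apart. The DNaseI region at 101448615 to 101449099 (score 36) carried HEB (101448689 to 101448889, score 12) and TCF1 (101448791 to 101448973, score 8), with centres 93 bp apart. The DNaseI region at 101421403 to 101422172 (score 64) carried HEB alone (101421521 to 101421721, score 10). The lowest scores listed are 9 for HEB and 7 for TCF1, and the medians are 11 for each. Many scores are tied near these floors. Both TCF1 scores of 8 were below the median and lay above only 0.028% of the TCF1 list, in which 442 regions had that score. The HEB score of 10 lay above only 0.75% of the HEB list, in which 1978 regions had that score. The HEB scores of 11 and 12 lay above 40.9% and 58.4% of it.

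The highest TCF1 score of the window was found without HEB. The TCF1 region at 101464797 to 101464979 scored 44, exceeded by 13 TCF1 regions. It overlapped the DNaseI region at 101464818 to 101465230 by 162 bp, at its edge. That DNaseI region scored 58, above 98.1% of those of like width. This TCF1 region lay 73.2 kb from the TCF1 region at 101391601. A HEB region at 101461137 to 101461337, with a score of 11, lay 3.65 kb before it, measured between centres, and was the only HEB member outside open chromatin. It was 646 bp from the DNaseI region at 101461984 to 101462289 (score 19).

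The highest DNaseI score of the window, 181, belonged to the region from 101488261 to 101490140, which was 1880 bp wide. It was exceeded by 229 DNaseI regions and lay above 95.1% of those of like width. Its HEB region at 101489667 to 101489867 scored 23 and its TCF1 region at 101489721 to 101489903 scored 14, with centres 45 bp apart. Both lay toward the higher coordinates of the open region, 566.5 and 611.5 bp from its centre. The TCF1 regions at 101464797 and 101489721 were 24.9 kb apart. The other 20 DNaseI regions of the window scored 8 to 27, with widths up to 662 bp, and carried neither factor.

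**Figure D4:**
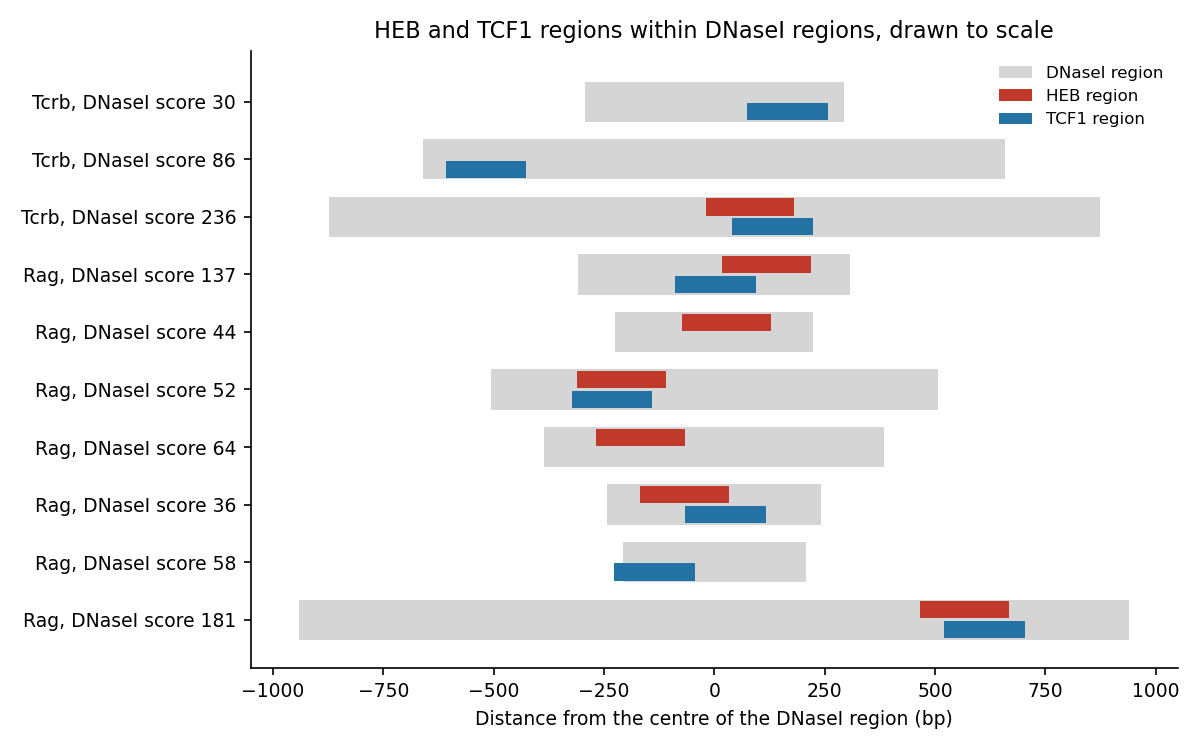
HEB (red) and TCF1 (blue) regions drawn to scale within the 10 DNaseI regions (grey) that carry them, against distance in bp from the centre of each DNaseI region. HEB and TCF1 overlap in 5 of the 10, and the TCF1 region of the DNaseI region with a score of 58 extends past its edge.

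Over both windows, 7 of 8 HEB regions lay in DNaseI regions, or 87.5% (95% Clopper-Pearson interval 47.3 to 99.7%), against 34.5% of the whole HEB list. All 8 TCF1 regions did so (63.1 to 100%), against 84.9% of the whole TCF1 list. Of the 7 HEB regions in DNaseI regions, 6 were in the Rag window. The intervals treat neighbouring regions as independent, so no conclusion is drawn from them. HEB and TCF1 met in 5 cases, which is 5 of 8 HEB and 5 of 8 TCF1 regions (62.5%, interval 24.5 to 91.5% for each). In the whole lists 11.7% of HEB regions met TCF1 and 16.3% of TCF1 regions met HEB. The centres of the 5 member pairs were 21 to 115 bp apart with a median of 52 bp, and those of all 578 pairs had a median of 43 bp (quartiles 18 and 81 bp). HEB was carried by 6 of 27 DNaseI regions in the Rag window and 1 of 27 in the Tcrb window, against 3.43% of the DNaseI list. TCF1 was carried by 5 in the Rag window and 3 in the Tcrb window, against 6.1% of the list. Both factors were carried by 4 in the Rag window and 1 in the Tcrb window, against 1.28%. At least 1 factor was carried by 7 in the Rag window and 3 in the Tcrb window, against 8.25%. These counts are small and come from regions picked by locus, and no test was made on them.

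The windows differed in which open regions carried a factor. In the Rag window all 7 DNaseI regions with scores above 33, the upper quartile of the list, carried HEB or TCF1 (exact interval 59 to 100%), against 24.1% of such regions in the whole list. None of the 20 with lower scores did (0 to 16.8%), against 3.32% in the whole list. In the Tcrb window 2 of the 9 regions above 33 carried a factor, or 22.2% (2.81 to 60%), and 1 of the 18 others, or 5.56% (0.141 to 27.3%). These intervals treat neighbouring regions of a window as independent, so no conclusion is drawn from them. The difference between the windows was not tested. Regions of like width were compared as well, since wider DNaseI regions score higher. The 5 regions with both factors lay above 95.1%, 86.1%, 17.4%, 99.96% and 98.2% of regions of like width, for DNaseI scores of 181, 36, 52, 137 and 236. The region with a score of 52 was 1011 bp wide and ranked low in the group of the widest regions. That group runs up to 7846 bp, so the rank does not show a low score for a width of 1011 bp. Among the 619 DNaseI regions of the genome with both factors, whose median score was 91, those with scores of 236, 181 and 137 lay above the median and those with 52 and 36 below it.

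**Figure D5:**
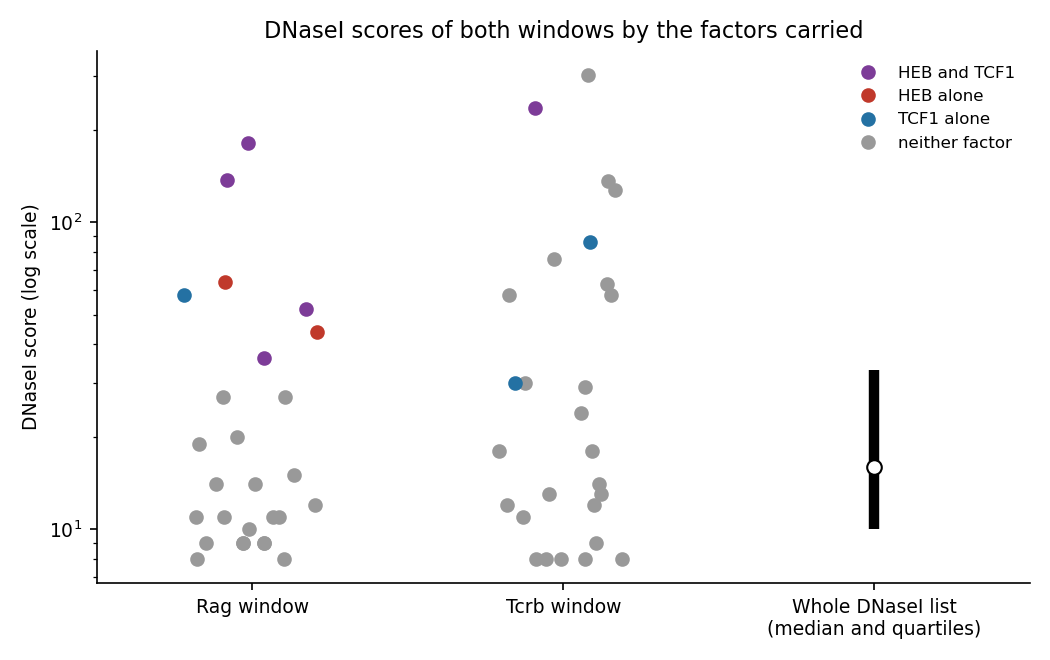
DNaseI score on a log scale for each of the 27 regions of the Rag window and the 27 of the Tcrb window, coloured by the factors carried, with the median (16) and quartiles (10 and 33) of the whole list at the right. In the Rag window every point above 33 carries a factor, and in the Tcrb window the highest point, 302, carries neither.

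The regions just outside the windows were counted as well. Widened by 100 kb on each side, the Tcrb window gained 1 DNaseI region and the Rag window 5, and neither gained a HEB or TCF1 region. Each value rests on 1 sample per assay, so no spread between animals can be given. Sequencing depth is unknown, and a region missing from a list may have fallen below the authors' threshold. The intervals cover counting error only.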

How the data were processed

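DP thymocytes were profiled with 1 sample per assay. Nuclei were digested with DNase I, ChIP chromatin was crosslinked and sheared by sound, and a SOLiD instrument read the 3 libraries used, per the labels' protocols. The submitters' processing notes name HOMER 6.1 and mm9, with no role. Aligner, thresholds and depth were not given in the sources used here. The authors deposited a whole-number score per region without a unit, so scores were ranked only within their own list.

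Starts were converted to count from 1. Regions met if they shared at least 1 bp. Percentiles give the share of the list with a lower score, and like width means the same of 9 width groups (deciles with equal widths kept together). Widths still vary within a group, and the group of the widest regions runs up to 7846 bp. For densities, a chromosome runs between its outermost listed regions. Every HEB and TCF1 member is named, with the DNaseI members that carry them, the 5 highest DNaseI scores of each window and the DNaseI region at the enhancer; a few others were named after their values were seen. Members, windows and lists were chosen with earlier results of these data known. No significance test was made. Overlap counting was checked on simulated regions. Alternatives were stricter scores, other overlap rules, widened and shifted windows, percentiles within the chromosome and, added after seeing the data, other link distances. Python 3.11.15, numpy 2.4.6, pandas 2.3.3, scipy 1.17.1 and matplotlib 3.10.9 were used.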

Additional observations from a re-analysis of the deposited data

How the results depend on the processing

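Of 50 recomputed values, 34 stayed within 1.5 times a count or within the 95% interval of a share or percentile. The other 16 moved, among them both longest stretches, for which any change was counted. For a median percentile, the interval treated the value as a share of the whole list. It does not measure the spread of a median over the few members, so these labels say little about stability. When only scores over the median of their list were kept, the Tcrb window held 15 DNaseI and 1 TCF1 regions and the Rag window 11 DNaseI, 4 HEB and 3 TCF1 regions. The share of HEB members in DNaseI regions was then 100%, and the longest stretches without DNaseI regions were 411 kb at Tcrb and 26.4 kb around Rag1 and Rag2. This setting keeps fewer regions by construction. With percentiles taken within the chromosome, the median percentile in the Tcrb window was 54.2 for DNaseI (53.0 in the whole list) and 13.8 for TCF1 (12.5). In the Rag window it was 41.9 for DNaseI (41.0), 56.7 for HEB (58.4) and 71.1 for TCF1 (73.4). Groups of DNaseI regions linked over 10 kb numbered 8 in each window. Links of 20 kb gave 5 in the Tcrb window and 1 in the Rag window, and links of 5 kb gave 14 in the Rag window, in settings chosen after seeing the data. The 10 regions of the enhancer group were the same at 5, 10 and 20 kb. No paired analysis was possible because each assay has 1 sample.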
